A study of Homo sapiens with 10 samples.

Results

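The imprinted miRNA cluster of chromosome band 14q32, in the DLK1-MEG3 region, was followed in 10 small RNA libraries of ES-2 cells. The 52 mature miRNAs described here were taken by name from a list of miRNAs of that region, out of 2576 mature miRNAs in the table. ES-2 is an established human ovarian cancer cell line, grown in DMEM with 10% FBS. The cells received control siRNA (siC, 2 libraries) or a pool of siRNAs against IGF2BP1 (siIGF2BP1, 2 libraries), IGF2BP2 (siIGF2BP2, 3 libraries) or IGF2BP3 (siIGF2BP3, 3 libraries), and nothing further is given in the labels about dose or time. The comparisons ask whether miRNA levels differed after depletion of each of these paralogous RNA-binding proteins, and all results are for 1 cell line.

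In this region the protein-coding genes DLK1 and RTL1 are expressed from the paternal chromosome, and the long noncoding RNAs MEG3 and MEG8 and the miRNAs from the maternal one. The miRNAs are processed from long maternal transcripts that run through the whole region, so that many are made together. miR-127, miR-136, miR-431, miR-432 and miR-433 lie antisense to RTL1 and pair perfectly with its transcript, while the larger distal group from miR-379 to miR-656 arose by tandem duplication and is best known from placenta and brain. Silencing of the cluster has been described in several tumours, the ovary included.

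The members with the most reads are shown first, since most of the values below rest on them. Each line gives the mature miRNA of 21 to 23 bases, 5′ to 3′, from RefSeq (GRCh38.p14), with the seed (bases 2 to 8, which pair with a target) in capitals.
hsa-miR-127-3p: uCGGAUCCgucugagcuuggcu
hsa-miR-381-3p: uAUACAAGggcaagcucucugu
hsa-miR-411-5p: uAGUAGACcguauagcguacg
hsa-miR-410-3p: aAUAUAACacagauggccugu
hsa-miR-654-3p: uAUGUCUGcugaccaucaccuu
hsa-miR-409-3p: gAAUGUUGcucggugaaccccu
hsa-miR-432-5p: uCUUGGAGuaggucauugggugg
hsa-miR-487b-3p: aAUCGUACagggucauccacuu
hsa-miR-136-3p: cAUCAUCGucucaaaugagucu
hsa-miR-889-3p: uUAAUAUCggacaaccauugu
hsa-miR-323a-3p: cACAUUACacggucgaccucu
hsa-miR-134-5p: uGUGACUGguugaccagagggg
No 2 of these 12 have the same seed. Mature sequences of all 52 members were found in RefSeq. Their median GC content was 45.5%, against 52.4% for the 1015 other mature miRNAs with a read and a RefSeq sequence, and 21 of the 52 began with A and 21 with U.

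In GRCh38.p14 the members span 197712 bases at chr14:100869075-101066786, all on the plus strand. The deposited table was made on hg19 and holds no coordinates, so these positions come from RefSeq alone. They fall into 11 members from miR-493 to miR-136, the single member hsa-miR-370-3p, and 40 members from miR-379 to miR-656. In GENCODE v29, 7 members lie in exons of RTL1 on the opposite strand, 14 in introns of MEG8, 5 in introns of MIR381HG, and 6 in introns and 2 in exons of MEG9.

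The cluster was readily detected in the siC and siIGF2BP1 libraries and nearly absent from the siIGF2BP2 and siIGF2BP3 libraries. Reads were recovered from the deposited normalised signal, as described under the processing. The members summed to 2448 reads in siC C2 and 1471 in siC C3, and to 2167 and 2845 in siIGF2BP1 replicates 1 and 2. The 3 siIGF2BP2 libraries held 8, 7 and 10 of their reads, and the 3 siIGF2BP3 libraries 9, 9 and 14. The libraries held 462724 to 1269743 miRNA reads. Both siIGF2BP1 libraries were deeper than every siIGF2BP2 and siIGF2BP3 library, while siC C2 and siC C3 (553288 and 733608) lay within the range of those 6.

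As a share of all miRNA reads, the members made up 0.442% (exact Clopper-Pearson 95% interval 0.425% to 0.460%) of siC C2 and 0.201% (0.190% to 0.211%) of siC C3. The shares were 0.171% (0.164% to 0.178%) and 0.260% (0.250% to 0.269%) in siIGF2BP1. Shares in siIGF2BP2 were 0.00115%, 0.00141% and 0.00182%, and those in siIGF2BP3 0.00195%, 0.00110% and 0.00182%, with intervals that reach from 0.000495% to 0.00369%. The lowest siC or siIGF2BP1 share was 87.7-fold above the highest share of the other 6 libraries. The intervals and the floor of 3 reads used below cover counting error only, since the reads carry no molecular identifiers.

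**Figure D1:**
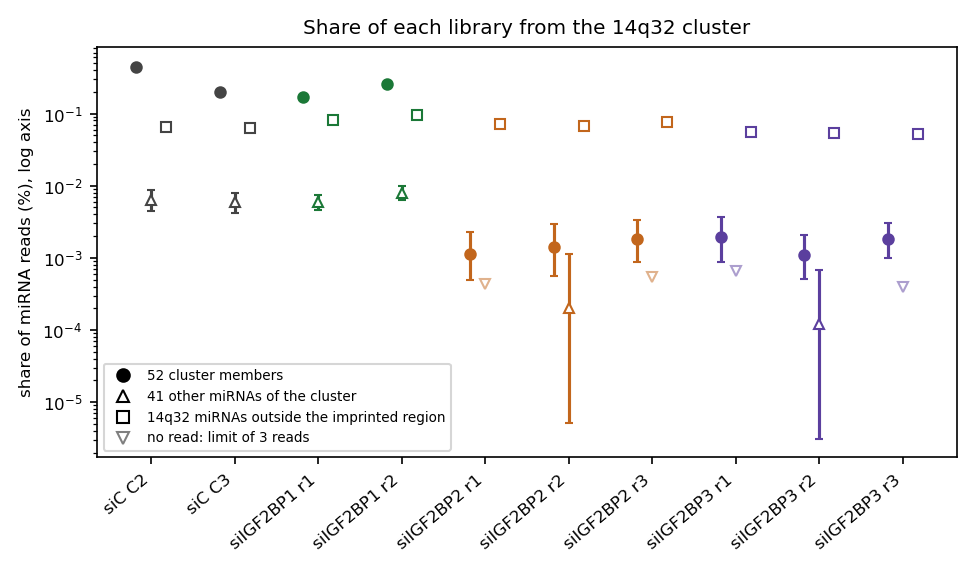
Share of miRNA reads (in %, log axis) in each of the 10 libraries (x axis, coloured by group) from the 52 members, from 41 other miRNAs of the same imprinted region and from 14q32 miRNAs outside it, with exact 95% binomial intervals as bars. The members lie at 0.171% to 0.442% in siC and siIGF2BP1 and at 0.00110% to 0.00195% in siIGF2BP2 and siIGF2BP3, while the miRNAs outside the imprinted region stay between 0.0516% and 0.0949% throughout.

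This split follows a label that is not a treatment. The siC and siIGF2BP1 samples have the line's name as their source name and the siIGF2BP2 and siIGF2BP3 samples a description of the line, and no group has samples under both. Source name and knockdown therefore cannot be told apart in siIGF2BP2 or siIGF2BP3 against siC, nor in siIGF2BP1 against siIGF2BP2 or siIGF2BP3. siIGF2BP1 against siC and siIGF2BP2 against siIGF2BP3 are the comparisons within a source name. In bulk RNA, fewer cells that express the cluster and less of it per cell cannot be told apart either. Depletion of the IGF2BP mRNAs is not measured by a table of mature miRNAs.

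Of the 52 members, 51 had a read in some library and hsa-miR-154-3p had none. In every siC and siIGF2BP1 library 42 members were read, with 45 to 48 members per library. Each siIGF2BP2 and siIGF2BP3 library held reads of 4 to 7 members. For 42 members every siC and siIGF2BP1 value lay above every siIGF2BP2 and siIGF2BP3 value, and over all 889 tested miRNAs this held for 9.34%. The 889 include these members. Of the 47 tested members, 38 passed the filter on low values through siC and siIGF2BP1 alone. For those 38 such a separation was largely built into the choice.

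Among the members that lie antisense to RTL1, hsa-miR-127-3p (chr14:100883035-100883056) was the most abundant of the cluster. Its deposited values were 1966 and 717 in siC, 463 and 1113 in siIGF2BP1, 4.24, 1.91 and 12.1 in siIGF2BP2, and 5.99, 3.55 and 7.14 in siIGF2BP3. The siC and siIGF2BP1 values overlap, and all 6 others are far lower. It was read 1731 times in siC and 11 and 12 times in siIGF2BP2 and siIGF2BP3, which makes siC 210-fold (95% counting interval 117 to 421) and 232-fold (133 to 451) higher by reads scaled to the deposited values. These folds lean on single libraries. Without siC C2 they were 118-fold (65.4 to 238) and 131-fold (74.2 to 255), and without siC C3 323-fold and 358-fold. siIGF2BP2 replicate 3 held 7 of the 11 reads, and without it the fold over siIGF2BP2 was 392 (153 to 1441). On the log2(value + 1) scale it was lower than in siC by limma's test in siIGF2BP2 (log2 fold change -7.67, SE 0.60, adjusted p = 2.09e-06) and in siIGF2BP3 (-7.54, SE 0.60, adjusted p = 2.94e-06).

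hsa-miR-432-5p (chr14:100884496-100884518) had values of 122 and 94.5 in siC, 85.2 and 79.3 in siIGF2BP1, and 0 in all 6 other libraries. Setting the group's 0 at a floor of 3 reads, siC was at least 64.4-fold higher than siIGF2BP2 and at least 77.9-fold higher than siIGF2BP3. hsa-miR-136-3p (chr14:100884750-100884771) had 89.1 and 74.5 in siC, 78.7 and 75.8 in siIGF2BP1, and 0 in the others, so that siC was at least 48.9-fold and 59.1-fold higher. Such a bound takes the siC reads without their counting error, unlike the intervals of other folds. It also falls with the depth that is left. Without siIGF2BP2 replicate 1, the deepest of its group, it was 39.3-fold and 29.8-fold over siIGF2BP2 for these 2 members. Over siIGF2BP3 it was 47.8-fold and 36.2-fold without replicate 2 of that group, and 47.9-fold and 36.4-fold without replicate 3. Both passed limma's test in siIGF2BP2 and siIGF2BP3 against siC (adjusted p = 5.88e-07 in each for hsa-miR-432-5p and 1.09e-06 in each for hsa-miR-136-3p). With 0 in all 6 of those libraries, both entered the test through siC and siIGF2BP1 alone. The 0s also show no spread, so these p-values do not measure how replicates vary there.

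These 2 were the steadiest of the abundant members among the siC and siIGF2BP1 libraries, and hsa-miR-136-3p varied there only from 74.5 to 89.1. The remaining members of this stretch were low. hsa-miR-136-5p, hsa-miR-127-5p, hsa-miR-433-3p and hsa-miR-493-5p had means of 3.48 to 6.95 over the 10 libraries, hsa-miR-431-5p and hsa-miR-493-3p of 2.05 and 1.13, and hsa-miR-337-3p and hsa-miR-337-5p of 0.64 and 0.30. All 8 had 0 reads in siIGF2BP2 and siIGF2BP3, so that hsa-miR-127-3p gave all 23 reads of the 11 members there, against 4432 reads in siC and siIGF2BP1.

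hsa-miR-370-3p, which lies alone between both groups of loci, had values of 14.8 and 14.6 in siC and 8.03 and 19.4 in siIGF2BP1. It had a single read in siIGF2BP3 replicate 2, at 1.18, and none in the other 5 libraries. It was lower than siC in siIGF2BP2 and in siIGF2BP3 (log2 fold change -3.98 and -3.60).

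The 40 members from miR-379 to miR-656 gave 4447 reads in siC and siIGF2BP1 and 33 in siIGF2BP2 and siIGF2BP3. The highest was hsa-miR-381-3p (chr14:101045968-101045989), with 450.3 and 157 in siC, 209 and 286 in siIGF2BP1, 0 in all of siIGF2BP2, and 3.99, 0 and 1.19 in siIGF2BP3. The siC values enclose those of siIGF2BP1. By reads, siC was at least 174-fold higher than siIGF2BP2 and 210-fold (71.3 to 1022) higher than siIGF2BP3, where 3 reads were seen. Without siC C2 these were at least 94.7-fold and 114-fold (38.2 to 563), and without siC C3 at least 272-fold and 328-fold. Without siIGF2BP2 replicate 1 the bound was 106-fold. Without siIGF2BP3 replicate 1, which held 2 of the 3 reads, the fold was 486, and without its replicate 2 it was 129.

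hsa-miR-411-5p (chr14:101023340-101023360) had 261 and 194 in siC, 249.8 and 151 in siIGF2BP1, 0, 3.82 and 0 in siIGF2BP2, and 2.0, 0 and 0 in siIGF2BP3. The siC and siIGF2BP1 values overlap, and the siC libraries differed 1.34-fold by reads. siC was 203-fold (55.6 to 1681) higher than siIGF2BP2 and 490-fold (87.2 to 19406) higher than siIGF2BP3, on 2 and 1 reads in the latter groups. Those reads came from 1 library each, siIGF2BP2 replicate 2 and siIGF2BP3 replicate 1, without which siC was at least 96.0-fold and 126-fold higher. The fold over siIGF2BP2 was 123 without its replicate 1, and that over siIGF2BP3 was 300.5 and 301 without replicates 2 and 3.

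hsa-miR-410-3p (chr14:101065961-101065981) had 239 and 164 in siC, 150.2 and 179 in siIGF2BP1, 0 in all of siIGF2BP2, and 2.0, 1.18 and 2.38 in siIGF2BP3. It is the most distal of the abundant members and lies in an exon of MEG9. siC was at least 119-fold higher than siIGF2BP2 (72.6-fold without siIGF2BP2 replicate 1) and 108-fold (41.7 to 399) higher than siIGF2BP3.

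hsa-miR-654-3p (chr14:101040269-101040290) had 196 and 87.8 in siC, 99.6 and 65.2 in siIGF2BP1, 1.41, 0 and 1.73 in siIGF2BP2, and 0, 1.18 and 0 in siIGF2BP3. hsa-miR-409-3p (chr14:101065346-101065367) had 155 and 89.2 in siC, 58.6 and 123 in siIGF2BP1, 0, 1.91 and 0 in siIGF2BP2, and 0, 1.18 and 1.19 in siIGF2BP3. Each was read 3 times in the last 6 libraries, against 383 and 373 reads in the first 4. Values of siC and siIGF2BP1 overlap for both.

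hsa-miR-487b-3p (chr14:101046505-101046526) had 112 and 67.9 in siC, 61.9 and 79.3 in siIGF2BP1, and 0 in the other libraries. hsa-miR-889-3p (chr14:101047949-101047969) had 97.3 and 42.6 in siC, 45.8 and 39.7 in siIGF2BP1, and 0 in the others. hsa-miR-323a-3p (chr14:101025782-101025802) had 61.0 and 42.6 in siC, 32.1 and 51.1 in siIGF2BP1, and 0 in the others. Against the floor of 3 reads, siC was higher than siIGF2BP2 by at least 52.9-fold, 40.4-fold and 30.7-fold for these 3 members. Without siIGF2BP2 replicate 1 the bounds were 32.2-fold, 24.6-fold and 18.7-fold, and without siC C2 that of hsa-miR-889-3p was 25.7-fold.

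hsa-miR-134-5p (chr14:101054694-101054715), known from neuronal dendrites, had 26.4 and 27.9 in siC, 12.9 and 24.7 in siIGF2BP1, and 0 in the other libraries. Both of its siIGF2BP1 values lie below both siC values, and 35% of all tested miRNAs had both on one side. siC was at least 16.4-fold higher than siIGF2BP2 and at least 19.9-fold higher than siIGF2BP3. The bounds were 10.0-fold without siIGF2BP2 replicate 1, and 12.2-fold without siIGF2BP3 replicate 2 or 3.

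**Figure D2:**
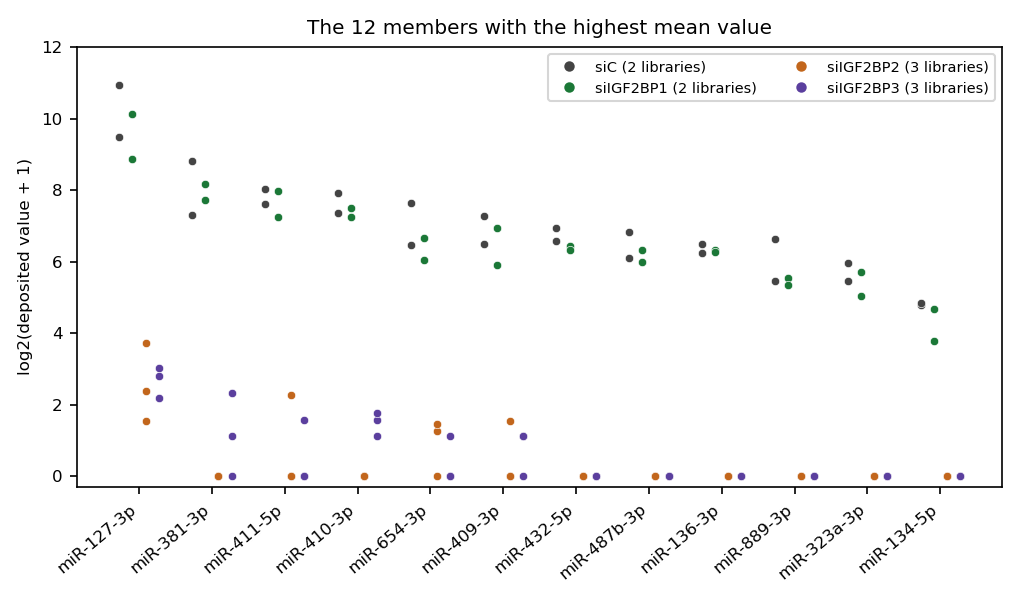
Deposited values of the 12 members with the highest mean, as log2(value + 1) (y axis), in each library (points, coloured by group). Points of siC and siIGF2BP1 overlap or lie side by side, and 6 of the 12 members are at 0 in every siIGF2BP2 and siIGF2BP3 library.

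In siIGF2BP2 against siC, 34 of the 52 members were lower by limma's test (Benjamini-Hochberg adjusted p below 0.05 over 889 miRNAs), 0 were higher, 13 did not pass and 5 were not tested. Over all tested miRNAs 7.76% were lower. In siIGF2BP3 against siC, 37 members were lower and 0 higher, against 8.66% lower over all tested miRNAs, and 33 members passed in both, which share the siC libraries. In siIGF2BP1, 36 members were higher than in siIGF2BP2, where 11.8% of all tested miRNAs were, and 37 were higher than in siIGF2BP3, where 12.3% were. Of the 47 tested members, 38 passed the filter through their siC and siIGF2BP1 values alone, so for them a difference was built into the choice.

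The median log2 difference over the 47 tested members was -2.93 in both siIGF2BP2 and siIGF2BP3 against siC, against -0.03 and 0 over all 889. Called log2 differences in siIGF2BP2 ran from -8.06 for hsa-miR-381-3p to -1.99 for hsa-miR-382-3p. The 12 most abundant members were called in all 4 comparisons between the source names, whichever 1 library was left out. DESeq2 on the recovered reads called 20 members lower in each knockdown, against 6.19% (siIGF2BP2) and 6.97% (siIGF2BP3) of all tested miRNAs. In siIGF2BP2 against siC it gave no adjusted p for 17 of the 47 tested members. The authors' deposited table gives false discovery rates below 0.05 for 26 (siIGF2BP2) and 27 (siIGF2BP3) of the 54 member rows, all lower than siC, and for 0 member rows in siIGF2BP1. Over all 2794 rows of the authors' deposited table, 1.97% and 2.51% were lower in siIGF2BP2 and siIGF2BP3.

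**Figure D3:**
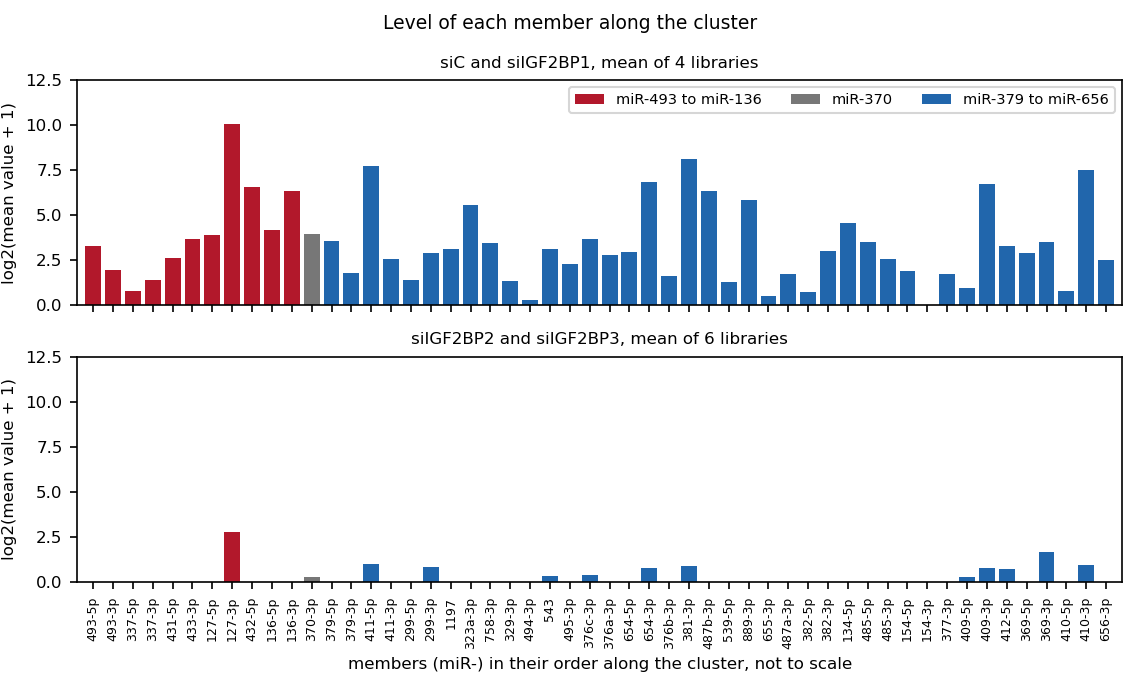
Mean deposited value of each of the 52 members as log2(mean + 1) (y axis), in their order along the cluster (x axis, not to scale), over the 4 siC and siIGF2BP1 libraries (top) and the 6 siIGF2BP2 and siIGF2BP3 libraries (bottom), coloured by stretch. Members of every stretch are read at the top, and 13 have a read at the bottom.

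Of the 47 tested members, 30 passed in all 4 comparisons between source names, with 16 to 3570 reads in siC and siIGF2BP1. In the same directions, 7.76% to 12.3% of all tested miRNAs passed in the single comparisons. The 4 comparisons share libraries, and 38 of the 47 members passed the filter through siC and siIGF2BP1 values alone. The best read members outside the 30 were hsa-miR-369-3p (42 reads in siC and siIGF2BP1) and hsa-miR-412-5p (29 reads). They passed in 1 comparison each. hsa-miR-299-5p, hsa-miR-337-3p, hsa-miR-376b-3p, hsa-miR-409-5p and hsa-miR-539-5p passed in none. hsa-miR-154-5p, hsa-miR-329-3p and hsa-miR-495-3p passed against siIGF2BP1 but not against siC. hsa-miR-299-3p, hsa-miR-431-5p and hsa-miR-493-3p passed against siC but not against siIGF2BP1. hsa-miR-377-3p, hsa-miR-379-3p and hsa-miR-487a-3p missed the threshold in siIGF2BP2 against siC alone. hsa-miR-410-5p, with 1 read in each siC library and 0 in all others, was called in siIGF2BP3 against siC. It passed the filter through siC alone. The untested members were hsa-miR-337-5p, hsa-miR-382-5p, hsa-miR-494-3p, hsa-miR-655-3p and hsa-miR-154-3p, with 0 to 3 reads over all libraries.

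In all, 13 members had any read in the 6 siIGF2BP2 and siIGF2BP3 libraries with 57 reads between them. hsa-miR-127-3p was read in all 6 libraries and gave 23 of them. hsa-miR-369-3p was read in 5 of the 6. Beside the abundant members already given, hsa-miR-412-5p and hsa-miR-299-3p had 3 reads each, in 3 libraries each, and hsa-miR-370-3p, hsa-miR-376c-3p, hsa-miR-543 and hsa-miR-409-5p had a single read each. The other abundant members seen there, hsa-miR-381-3p, hsa-miR-411-5p, hsa-miR-410-3p, hsa-miR-654-3p and hsa-miR-409-3p, were read in 2 to 3 of the 6.

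hsa-miR-369-3p gave the most reads of this remainder after hsa-miR-127-3p. Its sequence is AU-rich, at 23.8% GC the lowest of the 52.
hsa-miR-369-3p: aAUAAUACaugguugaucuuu
Its values were 8.25 and 7.98 in siC, 12.9 and 13.2 in siIGF2BP1, 1.41, 5.73 and 1.73 in siIGF2BP2, and 2.0, 0 and 2.38 in siIGF2BP3. It gave 42 of 8931 member reads in siC and siIGF2BP1, or 0.470% (exact 95% interval 0.339% to 0.635%), and 8 of 57 in siIGF2BP2 and siIGF2BP3, or 14% (6.26% to 25.8%). It was not called against siC in siIGF2BP2 or siIGF2BP3 and was higher in siIGF2BP1 than in siIGF2BP3. The shares of hsa-miR-412-5p and hsa-miR-299-3p were also higher in siIGF2BP2 and siIGF2BP3, at 5.26% (1.10% to 14.6%) each, on 3 reads each. In siC and siIGF2BP1 they were 0.325% (0.218% to 0.466%) and 0.246% (0.154% to 0.373%). hsa-miR-369-3p was singled out after its values had been seen.

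Within a source name, siIGF2BP1 against siC, 0 of the 47 tested members passed limma's test, where 2.47% of all tested miRNAs did. The lowest adjusted p of a member was 0.133. Before adjustment 2 members had p below 0.05. These were hsa-miR-382-3p, with 3.30 and 2.66 in siC and 6.43 and 15.9 in siIGF2BP1, and hsa-miR-410-5p, with 1.65 and 1.33 in siC and 0 and 0 in siIGF2BP1. hsa-miR-410-5p had a single read in each siC library and none elsewhere. It passed the filter through siC alone, so it could only come out lower. DESeq2 called 0 members, but it gave no adjusted p for 36 of the 47. edgeR called 1, hsa-miR-127-3p (log2 fold change -0.88, adjusted p = 0.000707, lower in siIGF2BP1).

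For hsa-miR-127-3p limma gave a log2 fold change of -0.73 (SE 0.65, 95% interval -2.14 to 0.69, adjusted p = 0.76), and 0.00 without siC C2. The siC libraries differed from each other 2.74-fold (95% counting interval 2.47 to 3.04) in this miRNA, and siIGF2BP1 replicate 1 held 0.416 times (0.376 to 0.459) the level of replicate 2. The siC C3 value lies between both siIGF2BP1 values, and the group means were 1342 ± 883 (SD, n = 2) and 788 ± 460.1 (SD, n = 2).

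The 95% intervals of the other abundant members were wide too. hsa-miR-410-3p had the narrowest of the 12 highest, with a log2 difference of -0.27 and an interval of -1.17 to 0.63. hsa-miR-136-3p had -0.08 (-1.14 to 0.98) and hsa-miR-381-3p -0.12 (-1.58 to 1.34). The interval of every one of the 12 reached below -1, so the fit does not bound these differences to within 1 on the log2 scale. Its spread was estimated over all groups together. Members at 0 throughout siIGF2BP2 and siIGF2BP3, such as hsa-miR-136-3p, show no spread there, so their intervals may be too narrow.

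Over the 47 tested members the median difference was -0.21, against 0.10 over all 889 miRNAs, with 30 members below 0 and 17 above. The split moved with the scaling, to 37 below and 10 above with median-of-ratios or upper-quartile scaling (medians -0.44 and -0.43), and 35 below and 12 above with TMM scaling or DESeq2 (-0.42 and -0.53). Without siC C2 it was 22 below and 23 above, with a median of 0.00. Both siIGF2BP1 values lay below both siC values for 8 members and above them for 5, where 35% of all tested miRNAs lay on one side. The 8 lower were hsa-miR-134-5p, hsa-miR-299-3p, hsa-miR-410-5p, hsa-miR-411-3p, hsa-miR-432-5p, hsa-miR-485-3p, hsa-miR-485-5p and hsa-miR-654-5p. The 5 higher were hsa-miR-1197, hsa-miR-154-5p, hsa-miR-369-3p, hsa-miR-376a-3p and hsa-miR-382-3p.

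**Figure D4:**
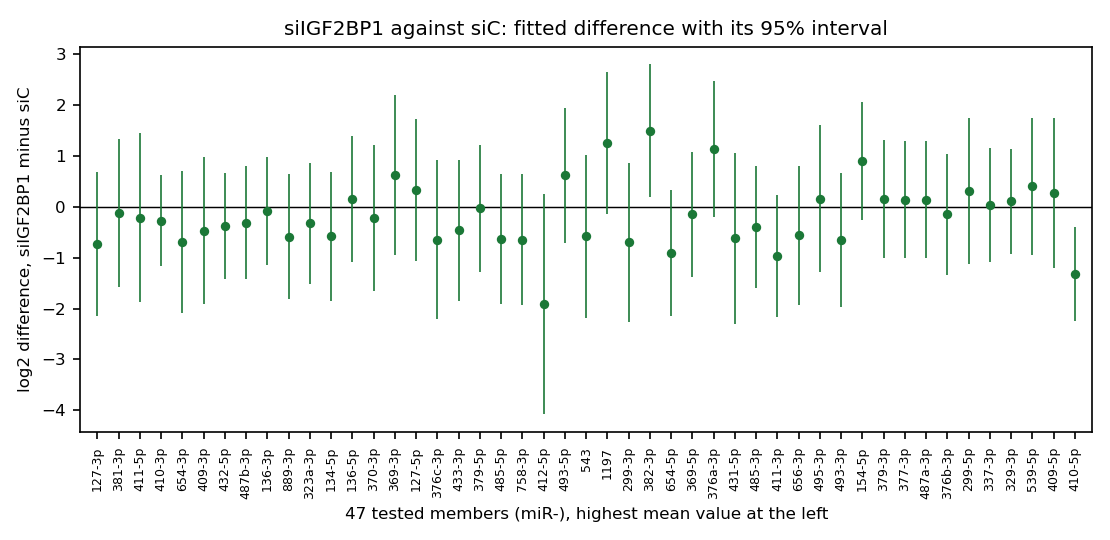
Fitted log2 difference of siIGF2BP1 minus siC (y axis, points) with its 95% interval (bars) for the 47 tested members, ordered by mean value (x axis). Intervals of 45 members include 0, and hsa-miR-382-3p and hsa-miR-410-5p lie clear of it before adjustment. hsa-miR-410-5p was read in siC alone and passed the filter only through it. The spread behind the intervals was estimated over all 4 groups together.

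In siIGF2BP2 against siIGF2BP3, 1 member passed, hsa-miR-410-3p, lower in siIGF2BP2 (log2 difference -1.49, SE 0.34, adjusted p = 0.0313), and 3.15% of all tested miRNAs passed in either direction. The call rests on 0 reads in siIGF2BP2 against 4 in siIGF2BP3, so the fitted difference depends on the value added before the log. It was lost with edgeR (adjusted p = 0.302), with DESeq2 (0.271) and when any 1 of 5 of the 6 libraries was left out.

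Summed over members, siC C2 was 2.06-fold (1.93 to 2.2) above siC C3, and siIGF2BP1 replicate 1 at 0.694 times (0.656 to 0.734) replicate 2. Among the 36 members with at least 10 reads in these 4 libraries, Pearson correlations of log2 values between libraries were 0.866 to 0.945 and Spearman correlations 0.722 to 0.857, given as a description across members that share their libraries. hsa-miR-127-3p took 48.7% and 36.6% of the members' reads in siC and 26.6% and 44.4% in siIGF2BP1, and these shares cross between the groups.

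**Figure D5:**
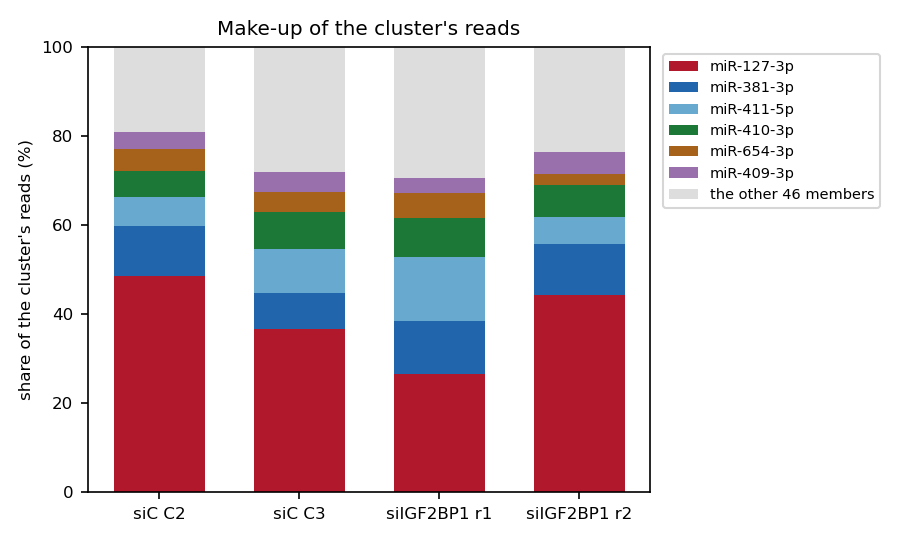
Share of the members' reads (in %, stacked bars) from each of the 6 most abundant members and from the other 46, in the 2 siC and 2 siIGF2BP1 libraries. hsa-miR-127-3p ranges from 26.6% in siIGF2BP1 replicate 1 to 48.7% in siC C2.

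The arms of a hairpin were read unevenly, to a differing degree. Both arms are listed for 14 loci, and in none did both reach a mean of 10, so the loci below were chosen after their values were seen. In siC and siIGF2BP1 the 3p arm gave 98.5% (exact 95% interval 98.1% to 98.9%) of the reads of miR-127, 98.9% (97.3% to 99.7%) of miR-409 and 99.7% (at least 98.9%) of miR-410. At miR-411 the 5p arm dominated, and the 3p arm gave 2.0% (1.14% to 3.22%). At miR-299, miR-337 and miR-369 the 3p arm gave 78.6% (59.0% to 91.7%), 66.7% (29.9% to 92.5%) and 64.6% (51.8% to 76.1%). At miR-485, miR-493 and miR-379 it gave 32.7%, 20.9% and 18%, and at miR-654, miR-382 and miR-154 94.6%, 90.9% and 0%. miR-136 had 81.7% (77.3% to 85.5%) from the 3p arm and 79.0% to 83.6% in the single libraries. The intervals of miR-299 and miR-337, on few reads, enclose that of miR-136. The hairpins of miR-127 and miR-136 (RefSeq, GRCh38.p14, plus strand) are printed with both mature arms in capitals.
MIR127: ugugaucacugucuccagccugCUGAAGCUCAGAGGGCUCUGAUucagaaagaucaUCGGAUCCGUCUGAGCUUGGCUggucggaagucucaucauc
MIR136: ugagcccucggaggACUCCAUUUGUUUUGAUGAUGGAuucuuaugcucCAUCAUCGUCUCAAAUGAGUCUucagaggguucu
The arm that follows the loop is the abundant one in both.

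The same seed was found in 3 pairs of members, all from the distal stretch. They are shown because reads of near-identical members could be shared, which depends on how the authors counted mismatches.
hsa-miR-376a-3p: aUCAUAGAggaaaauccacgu
hsa-miR-376b-3p: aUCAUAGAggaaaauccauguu
hsa-miR-379-3p: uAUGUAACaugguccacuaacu
hsa-miR-411-3p: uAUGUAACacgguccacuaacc
hsa-miR-487a-3p: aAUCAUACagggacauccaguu
hsa-miR-154-3p: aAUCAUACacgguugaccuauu
hsa-miR-376a-3p had 25 reads and hsa-miR-376b-3p 8 in siC and siIGF2BP1, hsa-miR-379-3p 9 and hsa-miR-411-3p 16, and hsa-miR-487a-3p 9 against 0 of hsa-miR-154-3p. A distance of at most 2 edits to another mature miRNA was found for 5 members, these first 4 and hsa-miR-376c-3p, and their values are uncertain to that extent. The 12 most abundant members lie at least 3 edits from any other.

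The seed of hsa-miR-381-3p is also that of hsa-miR-300, which had no read here, and the seed of hsa-miR-485-3p that of hsa-miR-539-3p, another miRNA of the region.
hsa-miR-300: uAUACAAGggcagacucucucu
hsa-miR-485-3p: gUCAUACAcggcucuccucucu
hsa-miR-539-3p: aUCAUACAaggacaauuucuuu
hsa-miR-485-3p had 18 reads and hsa-miR-539-3p 59 in siC and siIGF2BP1, and both had 0 in siIGF2BP2 and siIGF2BP3. No member has a seed in common with an miRNA outside the region of mean 1 or more.

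The 41 other miRNAs of the imprinted region showed the split as well, with 240 reads in siC and siIGF2BP1 and 2 in siIGF2BP2 and siIGF2BP3. The highest were hsa-miR-539-3p, hsa-miR-323b-3p and hsa-miR-431-3p, with 9, 13, 16 and 21 reads, 3, 12, 20 and 21, and 6, 0, 3 and 12 in the siC and siIGF2BP1 libraries and 0 in the others. Of these 41, 14 were tested, and 5 were lower in siIGF2BP2 and 5 in siIGF2BP3 against siC, beside 7.76% and 8.66% of all tested miRNAs. Apart from hsa-miR-541-5p, the tested ones had no read in siIGF2BP2 or siIGF2BP3. They passed the filter through siC and siIGF2BP1 alone, so for them a difference was built into the choice. The 14q32 miRNAs outside the imprinted region did not show it, with 0.0635% to 0.0949% of reads against 0.0516% to 0.0763%. Of their 4 tested members, led by hsa-miR-345-5p, 0 passed in either knockdown against siC. Between siIGF2BP1 and siIGF2BP2 0 passed, and 1 was higher in siIGF2BP1 than in siIGF2BP3, beside 12.3% of all tested miRNAs. At such overall rates few calls could be made among 4 miRNAs.

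Some miRNAs of other cell types showed the split too. Of 9 tested blood miRNAs 5 were lower than siC in each of siIGF2BP2 and siIGF2BP3, of 8 tested muscle, liver and neural miRNAs 4 in each, and of 7 tested mesenchymal miRNAs 2 in each, beside the same 7.76% and 8.66%. The mesenchymal hsa-miR-199b-5p was higher in siIGF2BP2 (log2 fold change 0.93). hsa-miR-143-3p, a smooth muscle and fibroblast miRNA, had 660, 1018, 721 and 1756 reads in siC and siIGF2BP1 and 2 to 7 in each other library. The red cell miRNA hsa-miR-451a had 41, 496, 9 and 242 against 0 to 2, and the endocrine miRNA hsa-miR-375 had 203, 67, 16 and 34 against 0 to 1. The endothelial miRNA hsa-miR-126-5p had 68, 64, 78 and 125 reads against 3 to 10, and the red cell miRNA hsa-miR-144-3p 7, 47, 3 and 21 against 0. Among neural miRNAs, hsa-miR-153-3p had 15, 51, 39 and 27 and hsa-miR-124-3p 11, 32, 21 and 55, both against 0, and hsa-miR-137 had 4, 45, 18 and 41 against 0 to 1. Some other members of these lists showed no such split. hsa-miR-142-5p had 274, 298, 521 and 425 reads against 283 to 1104, and hsa-miR-199a-3p 1381, 2127, 3540 and 3368 against 1451 to 2894. hsa-miR-7-5p had 510, 1326, 1677 and 1327 against 854 to 1343. In every siIGF2BP2 and siIGF2BP3 library most reads of the 3 lists came from hsa-miR-142-5p, from the miR-199 miRNAs, and from hsa-miR-7-5p with hsa-miR-9-5p. The miR-199 miRNAs, and hsa-miR-7-5p with hsa-miR-9-5p, gave most reads of their lists in siC and siIGF2BP1 as well. The sums below therefore say little about the other members. As sums, 12 blood miRNAs (0.0520% to 0.132% against 0.0458% to 0.164% of reads), 10 mesenchymal (0.531% to 0.674% against 0.472% to 0.589%) and 14 muscle, liver and neural miRNAs (0.155% to 0.217% against 0.144% to 0.214%) overlapped between the source names. The 15 miRNAs of the imprinted chromosome 19 cluster had 0 reads, and 6 epithelial miRNAs 0 to 7 reads per library. The part of other cells in the members' difference was not tested.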

How the data were processed

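Per the labels' protocols, RNA of ES-2 cells was extracted with TRIZOL and made into size-selected TruSeq small RNA libraries (10 in all). Tools in the submitters' processing notes are Bowtie2 2.2.4, cutadapt 1.6, edgeR 3.12 and featureCounts 1.4.6, with build hg19. How reads with several placements were counted, and how libraries were scaled, is not given in the sources used here. Library columns, as deposited, hold a normalised signal per row. All values (100% in each library, within 0.01 reads) were whole multiples of that of 1 read, which gave back the reads. The authors' log2 fold changes, p-values and false discovery rates were used only where their deposited table is named.

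Rows of the same mature miRNA were summed (2794 rows to 2576 miRNAs, with 54 rows for the 52 members). Counts would have been tested with edgeR, but for normalised values the main test was limma 3.58.1 with an intensity trend on log2(value + 1), which understates folds of low miRNAs. It covered the 889 miRNAs (47 members) that reached a value of 1 in 2 or more libraries, fitted all 4 groups together and used Benjamini-Hochberg adjusted p-values with a threshold of 0.05. edgeR 4.0.16 (quasi-likelihood) and DESeq2 1.42.0 on the reads, other pseudocounts, filters and scalings, and leaving out each library were the alternatives. Intervals of ratios of reads are exact and conditional on the sum of both.

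Which control sample each control column came from is not known, and the columns are called siC C2 and siC C3. The labels do not say whether replicates were separate cultures, so a p-value may reflect technical spread only. No pair of replicates agreed within counting noise (chi-square over its degrees of freedom, 6.80 to 38.7). The members and lists were chosen with earlier results of these data known. Every value is given for the 12 members of highest mean, and others are named where they passed a test within a source name, had a read in siIGF2BP2 or siIGF2BP3, or had a seed in common with another miRNA.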

Additional observations from a re-analysis of the deposited data

Results flagged for a closer look

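The difference from siC was itself different between knockdowns for 36 members in siIGF2BP1 against siIGF2BP2 and for 37 in siIGF2BP1 against siIGF2BP3, by limma's test of the difference, in which the siC libraries drop out. All were higher in siIGF2BP1, as were 11.8% and 12.3% of all tested miRNAs. They are the same calls as given above. Of the 47 tested members, 38 passed the filter through siC and siIGF2BP1 values alone. siIGF2BP1 also differs from siIGF2BP2 and siIGF2BP3 in source name, so that the knockdown cannot be told apart from it. For 1 member, hsa-miR-410-3p, the difference from siC differed between siIGF2BP2 and siIGF2BP3, on 0 against 4 reads, beside 3.15% of all tested miRNAs. Groups of 2 or 3 libraries are too small to look for single outlying libraries.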

How the results depend on the processing

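The number of members lower than siC stayed at 28 to 41 for siIGF2BP2 and siIGF2BP3 under other pseudocounts, scalings and the other limma and edgeR fits, against 34 and 37. It was 20 and 20 with DESeq2, and 11 and 11 when a mean value of at least 10 was required, which left 11 members to test. In siIGF2BP1 against siIGF2BP2 and siIGF2BP3 it was 16 and 20 with DESeq2 and again 11 and 11 with that filter, against 36 and 37. DESeq2 gave no adjusted p for 17 members in each of these comparisons. Leaving out each library in turn gave 26 to 31 (siIGF2BP2 vs siC), 27 to 32 (siIGF2BP3 vs siC), 28 to 32 (siIGF2BP1 vs siIGF2BP2), 30 to 34 (siIGF2BP1 vs siIGF2BP3), 0 to 1 (siIGF2BP2 vs siIGF2BP3) and 0 to 0 (siIGF2BP1 vs siC). A lone siC or siIGF2BP1 library was then taken to vary like the other groups. Of the 34 and 37 members, 25 and 26 were called whichever library was left out. In siIGF2BP1 against siC, 1 member was called with edgeR (hsa-miR-127-3p) and 1 with limma without its trend (hsa-miR-410-5p, read in siC alone). In siIGF2BP2 against siIGF2BP3, 0 were called with edgeR, DESeq2, limma without its trend, a pseudocount of 5 or the 2 groups alone.

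Upper-quartile scaling moved the median of all tested miRNAs to 0.30 (siIGF2BP2 vs siC) and 0.45 (siIGF2BP3 vs siC) on the log2 scale, while the median of the members was -2.78 in both. Directions in siIGF2BP1 against siC turned for 9 of the 12 highest members when 1 library was left out. The log2 fold change then ran from -1.45 to 0.0011 for hsa-miR-127-3p, -0.88 to 0.63 for hsa-miR-381-3p (0.10 without siIGF2BP1 replicate 1), -0.57 to 0.15 for hsa-miR-411-5p, -0.54 to 0.0024 for hsa-miR-410-3p, -0.99 to 0.059 for hsa-miR-409-3p, -0.67 to 0.045 for hsa-miR-487b-3p, -0.20 to 0.051 for hsa-miR-136-3p, -1.17 to 0.0012 for hsa-miR-889-3p and -0.65 to 0.0036 for hsa-miR-323a-3p. The values above 0 came without siC C2, or without a siIGF2BP1 replicate for hsa-miR-411-5p, hsa-miR-409-3p and hsa-miR-323a-3p. The cause was not tested. Without hsa-miR-127-3p the members' mean share of reads was 0.177% in siC, against 0.321% with it. That change was below the SD of the siC libraries (0.171%). The share without it was 0.135% in siIGF2BP1 (0.215% with it), 0.000825% in siIGF2BP2 (0.00146%) and 0.00102% in siIGF2BP3 (0.00162%).

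With the replicate number as a block among the knockdown libraries, 0 members were called in siIGF2BP2 against siIGF2BP3, as without the block on the same libraries (0), 35 in siIGF2BP1 against siIGF2BP2 and 37 in siIGF2BP1 against siIGF2BP3. Same-numbered siIGF2BP2 and siIGF2BP3 libraries did not deviate together (correlations -0.121, -0.157 and -0.037), so the numbers do not pair them. Members with 0 reads in a group are limited by depth. A count of 0 allows up to 3 reads over the group. Folds by reads with 1 library left out, given beside the members, were added after seeing the data, as was the fit without the block on the knockdown libraries.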
